A study of Mus musculus with 9 samples.

Results

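The 10 genes described here encode transcription factors and cofactors known to set brown, beige or white adipocyte identity. They were chosen by gene name, with earlier results of these data known. All 10 had a row in the deposited table of 28481 mouse genes. They were measured by RNA sequencing of epididymal white adipose tissue, a visceral depot, in 4 UBKO and 5 control libraries. UBKO libraries carry a knockout of Ctnnb1 driven by Ucp1-cre, and control libraries are labelled Control with no further genotype. Mice of both groups were given a beta3-adrenergic receptor agonist, which mimics the signal by which cold calls on fat, so these data hold no sample without the agonist. Neither the dose, the age nor the control alleles are given in the sources used here. Ucp1-cre acts in adipocytes that express Ucp1, while the RNA came from the whole tissue, which holds many other cells. Whether each library is a different mouse is not stated, and a p-value here reflects only how much the libraries vary, which may be technical.

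PRDM16 and EBF2 are known to switch on the thermogenic gene program in brown and beige adipocytes, ZFP516 is a cold-induced activator of the Ucp1 gene, and IRF4 works with PGC-1alpha in thermogenic fat. ZFP423, TLE3, RIP140 (encoded by Nrip1) and HOXC10 are known for holding that program back or for keeping the white state. C/EBPalpha and C/EBPbeta act more broadly in adipocyte differentiation, and C/EBPbeta is also a partner of PRDM16.

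In UBKO fat, 0 of the 9 regulators that could be tested were higher and 0 were lower than in control fat (edgeR's quasi-likelihood test, Benjamini-Hochberg adjusted p under 0.05), where 11.4% of 16123 genes tested were called, 3.88% higher and 7.56% lower. Hoxc10 had too few counts to be tested. At an unadjusted p under 0.05, 2 of 9 were lower (Tle3 and Zfp516) and 0 were higher, where 28.5% of all genes tested passed that rule and 16.1% were lower by it. DESeq2's Wald test and limma-voom with sample quality weights also called 0 of 9. The median log2 difference of the 9 was 0.01, and that of all genes tested -0.01. The intervals below show which sizes of change these libraries leave possible.

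Library totals lay between 16609632 and 17632709 counts in UBKO and between 15308480 and 17362336 counts in control fat. Mitochondrial genes took 20.1 to 25.4% of the counts in UBKO and 8.78 to 17.8% in control libraries, without overlap. Ctnnb1 stood at 180, 210, 307 and 199 CPM (counts relative to library size, with sizes scaled by TMM, the trimmed mean of M-values) in UBKO replicates 1 to 4, and between 276 and 360 CPM in control libraries, so UBKO replicate 3 lay inside the control range. Its log2 difference was -0.48 (edgeR adjusted p = 0.0976), and -0.46 with DESeq2's Wald test (adjusted p = 0.0481). With scaling by total counts it was -0.88 (edgeR adjusted p = 0.0123), where 27.8% of genes tested were lower. Without Control replicates 1 and 2 it was -0.36 (edgeR adjusted p = 0.289). In FPKM, which are scaled to total counts, UBKO lay at 13.5 to 22.1 and control libraries at 24.6 to 37.0, without overlap. By FPKM 24.2% of genes tested lay wholly lower in UBKO. The library labelled UBKO replicate 3 was kept in every comparison below, except where a fit left it out. The 8 markers of epididymal epithelium summed to 2.29% of all counts in Control replicate 1 and 2.04% in Control replicate 2, and to at most 0.00018% in any other library. Of 13 macrophage markers 12 were lower in UBKO fat, their summed level being 326 to 387 CPM in UBKO and 1112 to 2290 CPM in control libraries, and 0 of the 13 were at zero in all libraries of a group. Without Control replicates 1 and 2, 11 of the 13 were lower. Of 11 adipocyte markers 1 was higher and 0 were lower, with summed levels of 22909 to 31932 CPM in UBKO and 14218 to 28581 CPM in control libraries. The part of these shifts in the regulators' values was not tested. In whole tissue, fewer cells of a type and less RNA per cell cannot be told apart.

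The levels of the regulators differed widely. Per kilobase, Cebpa averaged 170 ± 31.2 FPKM in UBKO and 181 ± 45.7 FPKM in control fat, and Cebpb 67.7 ± 6.06 and 84.4 ± 24.4 FPKM (SD, n = 4 and 5). Zfp423 followed with 4.88 ± 0.228 FPKM in UBKO and 5.78 ± 0.506 FPKM in control fat, then Nrip1 with 3.40 ± 0.528 and 4.23 ± 0.573 FPKM. Below them came Zfp516, Tle3, Irf4, Prdm16, Ebf2 and Hoxc10, in that order of mean FPKM over the 9 libraries, all under 2.7 FPKM in each library. Each gene down to Irf4 was above the next in all 9 libraries. Prdm16 and Ebf2 could not be ordered, since Prdm16 was the higher in 4 of 9 libraries, and their means were 0.598 and 0.556 FPKM. In single libraries Prdm16 lay at 0.344 to 0.557 FPKM in UBKO and 0.552 to 0.916 FPKM in control fat.

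**Figure D1:**
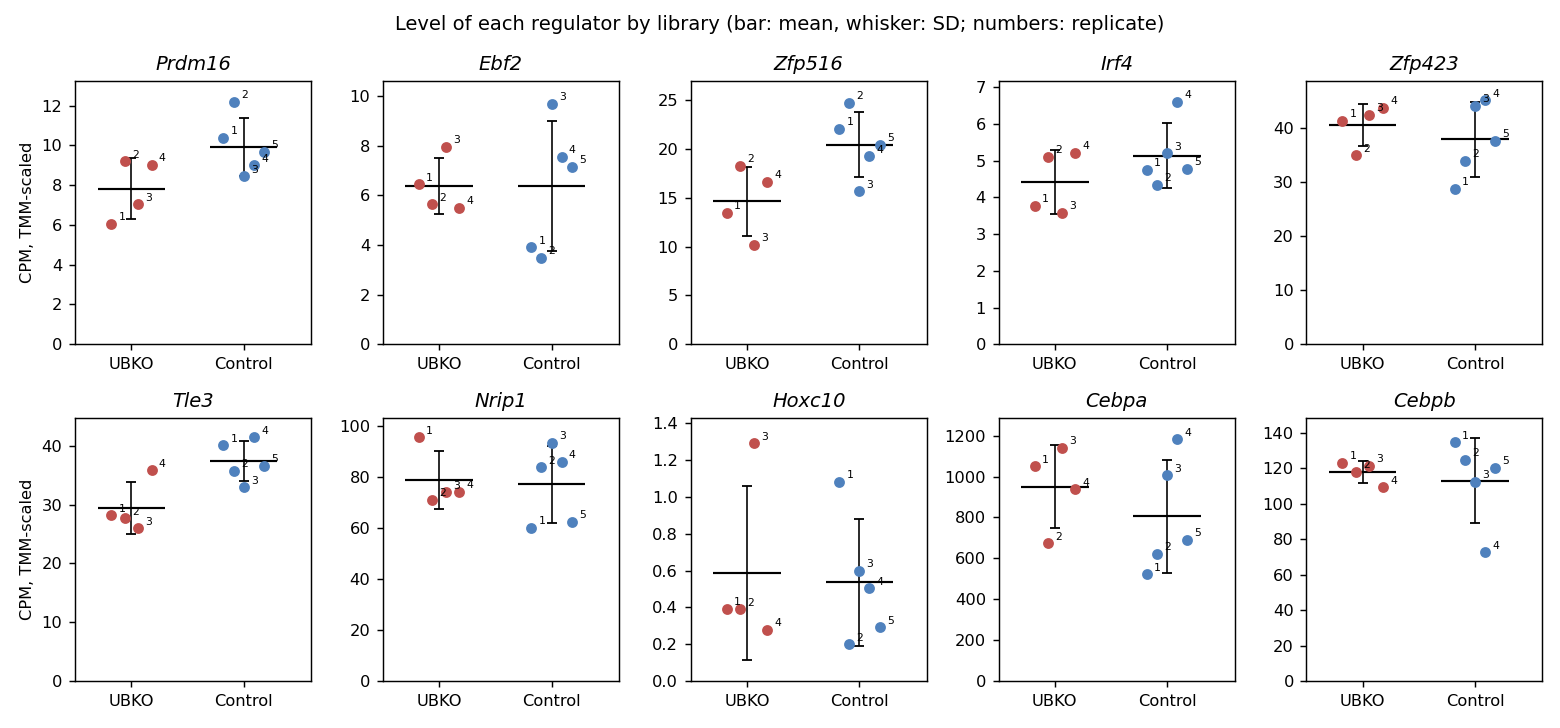
CPM of each regulator (y axis, TMM-scaled, from 0) in the 4 UBKO and 5 Control libraries; points are libraries with their replicate number, bars the mean and whiskers the SD. The groups overlap for all 10 genes, and Control replicates 1 and 2 hold the 2 lowest Ebf2 values (3.91 and 3.49 CPM).

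Among the brown and beige factors, Prdm16 (chromosome 4, 154316125 to 154636873, minus strand, mm10), the coregulator that commits cells to the brown fate, had 6.05, 9.19, 7.03 and 9.04 CPM in UBKO replicates 1 to 4. In Control replicates 1 to 5 it stood at 10.4, 12.2, 8.44, 9.01 and 9.66 CPM. UBKO replicates 1 and 3 lay below every control library, and the other UBKO libraries among the lower controls. The log2 difference was -0.34 (SE 0.18, 95% interval -0.73 to 0.05, edgeR adjusted p = 0.232). Without Control replicates 1 and 2, where Prdm16 was highest, the difference was -0.22 (edgeR adjusted p = 0.567). For Prdm16 and for every other regulator the CPM of the groups overlapped, whereas UBKO lay wholly above control for 6.41% of genes tested and wholly below for 9.11%.

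Zfp516 (chromosome 18, 82910663 to 83005314, plus strand), the activator of Ucp1, had 13.5, 18.2, 10.2 and 16.6 CPM in UBKO and 22.1, 24.7, 15.7, 19.3 and 20.4 CPM in control replicates. Only Control replicate 3 reached into the UBKO range, below UBKO replicates 2 and 4. With a log2 difference of -0.48 (SE 0.19, interval -0.90 to -0.06), it had the most negative estimate of the 9, and did not pass (edgeR adjusted p = 0.129). Without Control replicates 1 and 2, where Zfp516 was highest, its difference was -0.35 (edgeR adjusted p = 0.393), and that of Ebf2 was -0.36.

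Ebf2 (chromosome 14, 67233292 to 67430918, plus strand), a factor that marks brown and beige precursors and opens thermogenic genes, had 6.45, 5.63, 7.96 and 5.49 CPM in UBKO replicates. It had 3.91, 3.49, 9.69, 7.56 and 7.16 CPM in control replicates. The controls fell into a low pair, Control replicates 1 and 2, and 3 libraries at or near the top of all 9, while the UBKO libraries lay above the low pair and below Control replicate 3. Its log2 difference of 0.01 (SE 0.31, interval -0.68 to 0.69, edgeR adjusted p = 0.993) was the least precise of the 9. Without Control replicates 1 and 2, the libraries with epididymal transcripts, it was -0.36 (edgeR adjusted p = 0.333).

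Irf4 (chromosome 13, 30749226 to 30766976, plus strand), the interferon regulatory factor that adipocytes share with macrophages, dendritic cells and B cells, had 3.78, 5.11, 3.59 and 5.21 CPM in UBKO replicates. Control replicates had 4.76, 4.34, 5.21, 6.61 and 4.77 CPM. Its log2 difference was -0.22 (SE 0.20, interval -0.66 to 0.23, edgeR adjusted p = 0.523), and -0.33 without Control replicates 1 and 2 (edgeR adjusted p = 0.459). Among its paralogs, Irf5 and Irf8, factors of myeloid cells, were lower, with log2 differences of -2.23 and -1.53 (edgeR adjusted p = 0.00738 and 0.0327). Irf8 kept its call in 1 of 9 fits without 1 library, and without Control replicates 1 and 2 its call ended (log2 difference -1.30, edgeR adjusted p = 0.102). Irf5 lies over Tnpo3, which held 303% as many counts, so its level is uncertain. The macrophage markers had a median log2 difference of -2.39 in the same libraries. Dendritic cell markers (1 of 6 tested lower, summed level 28.7 to 38.7 CPM in UBKO and 34.3 to 52.0 CPM in control libraries) had a median of -0.31. Of 5 B cell markers 2 could be tested and 0 were called, with summed levels of 2.01 to 2.98 CPM in UBKO and 3.09 to 5.28 CPM in control libraries.

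Among the factors of the white state, Tle3 (chromosome 9, 61372366 to 61418497, plus strand), a corepressor of the Groucho family that competes with PRDM16 on PPARgamma target genes, came nearest to the threshold. Its levels were 28.2, 27.7, 26.0 and 35.9 CPM in UBKO replicates and 40.1, 35.7, 33.0, 41.4 and 36.6 CPM in control replicates. UBKO replicates 1, 2 and 3 lay below all controls, and UBKO replicate 4 above Control replicates 2 and 3. The log2 difference was -0.34 (SE 0.12, interval -0.61 to -0.08), with edgeR adjusted p = 0.0899, and between 0.051 and 0.225 in the 9 fits without 1 library. The promoters of Tle3 and Cebpb are shown because, of the member windows searched, only these held the TGACG core that cAMP-responsive CREB sites contain, and the agonist signals through cAMP. They are the 250 bases before the RefSeq start of each gene on GRCm38.p6, plus strand, with the core or its reverse complement in capitals.
Tle3, chr9:61372116-61372365: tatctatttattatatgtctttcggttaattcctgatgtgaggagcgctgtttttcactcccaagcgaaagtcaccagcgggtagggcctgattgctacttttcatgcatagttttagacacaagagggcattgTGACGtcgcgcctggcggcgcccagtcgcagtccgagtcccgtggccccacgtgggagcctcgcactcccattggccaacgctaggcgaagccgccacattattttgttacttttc
Cebpb, chr2:167688665-167688914: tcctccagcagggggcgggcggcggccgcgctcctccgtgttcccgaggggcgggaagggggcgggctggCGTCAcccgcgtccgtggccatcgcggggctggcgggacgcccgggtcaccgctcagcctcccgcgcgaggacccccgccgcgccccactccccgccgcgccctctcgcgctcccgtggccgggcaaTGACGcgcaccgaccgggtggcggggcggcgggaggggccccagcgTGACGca
The core begins 116 bases before the start of Tle3, and 180, 53 and 7 bases before that of Cebpb. On either strand it occurs in 2 of the 9 regulator windows searched and in 20.8% of all 32851 promoter windows. A match is therefore a description and not a site.

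The search covered 9 windows of 7 regulators in the RefSeq table, each from 250 bases before to 50 after a start, on both strands. The full palindrome TGACGTCA, the EBF motif (TCCC and GGGA parted by 2 bases), the interferon response motif (GAAA repeated after 2 bases) and the TCF/LEF motif ATCAAAG, the last bound by the partners of beta-catenin, were in 0 of the 9. These 4 motifs occur in 1.79%, 0.904%, 3.44% and 3.73% of all windows. The C/EBP motif TTGCNNAA was in 1 window, of Zfp423, and in 10.8% of all windows.

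Zfp423 (chromosome 8, 87661810 to 87959595, minus strand), the factor that maintains white adipocytes by restraining EBF2, had 41.5, 35.0, 42.5 and 43.8 CPM in UBKO replicates. In control replicates it had 28.8, 34.0, 44.2, 45.2 and 37.7 CPM, lowest in Control replicates 1 and 2 as for Ebf2. The log2 difference was 0.10 (SE 0.14, interval -0.22 to 0.42, edgeR adjusted p = 0.699).

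Nrip1 (chromosome 16, 76287400 to 76373827, minus strand), whose product RIP140 represses oxidative genes in white fat, had 95.5, 71.0, 73.9 and 74.0 CPM in UBKO replicates. Control replicates had 59.9, 83.7, 93.4, 86.0 and 62.4 CPM. UBKO replicate 1 stood apart from the other UBKO libraries and just above the highest control. The log2 difference was 0.03 (SE 0.16, interval -0.33 to 0.39, edgeR adjusted p = 0.93).

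Hoxc10 (chromosome 15, 102966796 to 102971893, plus strand), a positional factor of white depots that represses Prdm16, was near the detection limit. It had 6, 6, 18 and 4 counts in UBKO replicates and 23, 4, 10, 8 and 5 counts in control replicates. UBKO replicate 3 and Control replicate 1 held more counts than the other libraries of their groups. Over all libraries it had 34 counts in UBKO and 50 in control fat, a ratio of 1.07 per scaled library size, for which counting error alone gives exact 95% limits of 0.670 and 1.69. The annotated span of Hoxc5 covers Hoxc10 and held 2742% as many counts, so its level is uncertain.

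Cebpa (chromosome 7, 35119293 to 35121928, plus strand), the factor that completes adipocyte differentiation, had 1050, 673, 1142 and 937 CPM in UBKO replicates. Control replicates had 522, 623, 1007, 1182 and 690 CPM. UBKO replicate 2 and Control replicates 1, 2 and 5 were low, and the other libraries high. The log2 difference was 0.24 (SE 0.26, interval -0.34 to 0.82, edgeR adjusted p = 0.589), and -0.03 without Control replicates 1 and 2 (edgeR adjusted p = 0.957).

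Cebpb (chromosome 2, 167688915 to 167690418, plus strand), the early and cAMP-induced factor, had 123, 118, 121 and 109 CPM in UBKO replicates. It had 135, 125, 112, 72.5 and 120 CPM in control replicates. The UBKO libraries lay close together, and Control replicate 4 was below all other libraries. The log2 difference was 0.06 (SE 0.16, interval -0.30 to 0.43, edgeR adjusted p = 0.845). Tmem189 overlaps Cebpb and held 42.0% as many counts, so the level of Cebpb is uncertain.

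With another scaling between libraries, 5 of these differences changed sign. With scaling by total counts, the log2 differences of all 9 were negative, from -0.11 for Cebpa to -0.88 for Zfp516, while the median over all genes was -0.39. By that scaling 27.8% of genes tested were called lower and 1.46% higher. Of the regulators, 3 of 9 were lower. They were Tle3 with a log2 difference of -0.74, Zfp516 with -0.88 and Prdm16 with -0.74 (edgeR adjusted p = 0.0077, 0.0259 and 0.0364). Relative to the median of all genes these were -0.35, -0.49 and -0.35, near the values with TMM. With scaling to the adipocyte markers the differences of Tle3, Zfp516 and Prdm16 were -0.735, -0.86 and -0.73, while the median over all genes was -0.37. There they were not called (edgeR adjusted p = 0.111, 0.162 and 0.208). With limma on log2(FPKM + 1), 2 of the 6 regulators that passed the filter were lower, Tle3 and Zfp516, where 31.2% of genes tested were lower. With a pseudocount of 0.1 it was again 2 of 6, against 32.1%, and without a filter 1 of 10, Tle3, against 10.2%. The authors' deposited FPKM are scaled to total counts. In FPKM the UBKO and control libraries did not overlap for Tle3, Irf4 and Zfp423, all lower in UBKO, while 0 were higher without overlap, against 24.2% lower and 1.49% higher of genes tested. The authors' deposited table called 0 of the 10, with q-values from 0.536 for Zfp516 to 1.

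**Figure D2:**
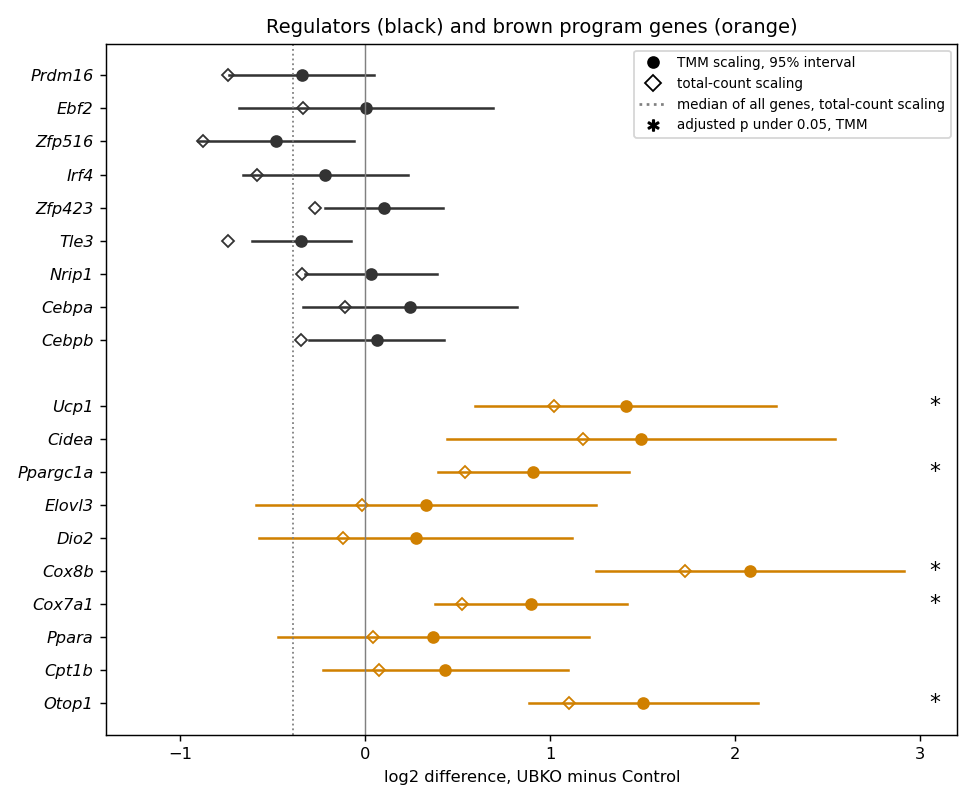
Log2 difference (UBKO minus Control, x axis) of the 9 tested regulators and of 10 brown program genes, as filled points with 95% intervals under TMM scaling and open diamonds under total counts; the dotted line is the median of all genes under total counts (-0.39) and asterisks mark adjusted p under 0.05. The 9 regulators lie between -0.48 and 0.24 under TMM with no asterisk, and 5 of the 10 brown program genes carry one.

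Ratios within a library do not depend on scaling, and 4 pairs of regulators were compared by exact two-sided permutation tests over libraries, where the smallest p possible is 0.0159. The log2 ratio of Cebpa to Cebpb (FPKM) averaged 1.31 ± 0.32 in UBKO and 1.13 ± 0.82 in control fat (SD, n = 4 and 5; exact p = 0.746, adjusted over the ratios 0.952). The control libraries ran from 0.28 in Control replicate 1 to 2.36 in Control replicate 4, and the UBKO libraries lay inside that range. Prdm16 against Tle3, factors that oppose each other, averaged -1.05 ± 0.26 in UBKO and -1.04 ± 0.23 in control fat (exact p = 0.952, adjusted 0.952). The means differed by -0.0022, since the estimates of both genes were lower by a like amount. Ebf2 against Zfp423 averaged -3.33 ± 0.24 in UBKO and -3.32 ± 0.43 in control fat (exact p = 0.937, adjusted 0.952). Prdm16 against Nrip1 averaged -2.96 ± 0.47 in UBKO and -2.57 ± 0.40 in control fat (exact p = 0.238, adjusted 0.952). The groups overlapped in all 4 ratios.

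**Figure D3:**
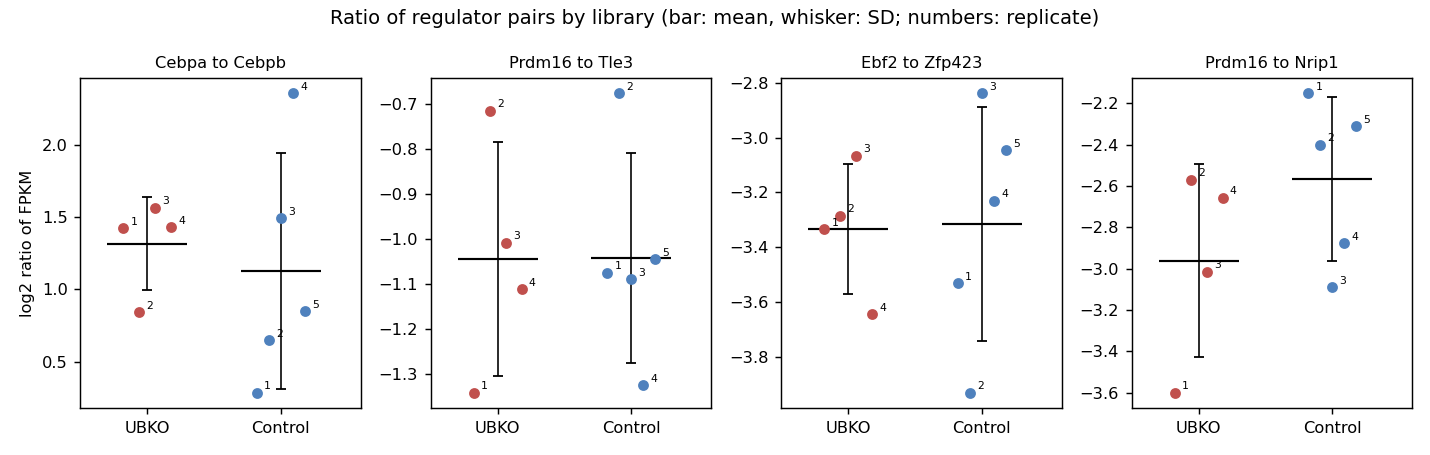
Log2 ratio of FPKM (y axis) for 4 pairs of regulators in the 4 UBKO and 5 Control libraries; points are libraries with their replicate number, bars the mean and whiskers the SD. UBKO and Control libraries overlap in each panel, and the Cebpa to Cebpb ratio spreads most among Control libraries (0.28 to 2.36).

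For 8 of the 10 regulators, all but Zfp516 and Nrip1, the level was also expressed as a share of the gene family within each library. Prdm16 made up 40.7 ± 3.39% of the summed FPKM of Prdm16 and its close paralog Mecom in UBKO, and 54.5 ± 6.81% in control fat (SD, n = 4 and 5). The shares did not overlap, at 36.8 to 44.6% in UBKO and 45.8 to 63.2% in control libraries. Mecom itself had a log2 difference of 0.45 (edgeR adjusted p = 0.0556), which did not pass. Tle3 made up 4.25 ± 0.582% of 6 Tle genes in UBKO and 5.69 ± 0.412% in control fat, also without overlap, while Tle5, the short family member, held 77.4 ± 3.29% and 72.6 ± 3.98%. Among 4 Ebf genes Ebf1, the general adipocyte factor of the family, held 76.9 ± 2.31% in UBKO and 74.9 ± 2.79% in control fat, and Ebf2 5.58 ± 1.02% and 6.32 ± 1.54%. Irf4 held 5.41 ± 0.868% of 9 Irf genes in UBKO and 4.25 ± 1.26% in control fat, where Irf5 held 9.96 ± 2.46% in UBKO and 28.3 ± 9.16% in control fat. Cebpa held 65.2 ± 4.89% of 7 C/EBP genes in UBKO and 61.2 ± 11.3% in control fat, and Cebpb 26.4 ± 4.08% and 29.3 ± 9.87%. Zfp423 held 90.7 ± 2.22% of the sum with its paralog Zfp521 in UBKO and 88.3 ± 1.36% in control fat. Hoxc10 was 0.409 ± 0.317% of 6 Hoxc genes in UBKO and 0.596 ± 0.574% in control fat, where Hoxc8 led with 65.1 ± 3.58% and 54.9 ± 4.30%. Shares did not overlap for 2 of the 8 regulators and for 7 of 28 other family genes (Mecom, whose share mirrors that of Prdm16, Tle6, Irf3, Irf5, Irf7, Hoxc4 and Cebpe), so this was as frequent among the other genes. These shares were examined after values were known, and no test was made of them. Of 27 paralogs tested, Irf5 and Irf8 were lower and 0 were higher, with a median log2 difference of -0.05. With scaling by total counts 7 of the 27 were lower and 0 higher, with a median of -0.45.

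**Figure D4:**
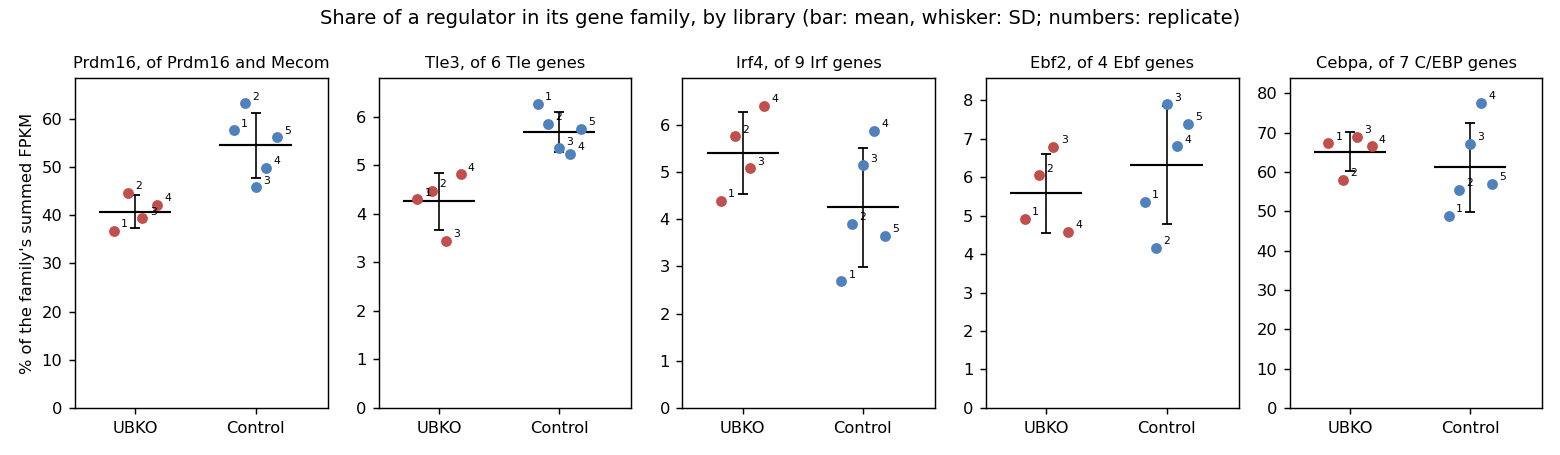
Share of 5 regulators in the summed FPKM of their gene family (y axis, %, from 0) in the 4 UBKO and 5 Control libraries; points are libraries with their replicate number, bars the mean and whiskers the SD. UBKO libraries lie below all Control libraries for Prdm16 (36.8 to 44.6% against 45.8 to 63.2%) and Tle3, and overlap them for Irf4, Ebf2 and Cebpa.

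Of 23 tested partners and further regulators, 1 was higher and 0 were lower, with a median log2 difference of 0.12. With scaling by total counts 6 of the 23 were lower and 0 higher, with a median of -0.30. The gene called with TMM was Pparg, the nuclear receptor on which PRDM16, EBF2 and TLE3 act, at 257 ± 41.2 CPM in UBKO and 150 ± 40.7 CPM in control fat (SD, n = 4 and 5; log2 difference 0.78, edgeR adjusted p = 0.0423). That call ended without Control replicates 1 and 2 (0.52, edgeR adjusted p = 0.0747) and with scaling by total counts (0.41, edgeR adjusted p = 0.0665), and was kept in 2 of 9 fits without 1 library. Ehmt1 and Ctbp1, enzyme and corepressor partners of PRDM16, had log2 differences of 0.12 and 0.14, and Nfia, which works with EBF2, of 0.58 (edgeR adjusted p = 0.817, 0.386 and 0.0824).

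Of 10 brown program genes that PRDM16 and EBF2 are known to raise, 5 were higher and 0 lower, with a median of 0.90. They were Cox8b, Otop1, Ucp1, Ppargc1a and Cox7a1, and 2 remained called both without Control replicates 1 and 2 and with scaling by total counts, Cox8b and Otop1. Cox8b and Otop1 also kept their calls in all 9 fits without 1 library, Cox7a1 in 3, and Ucp1 and Ppargc1a in 2 each. Otop1 was low, with 96 counts over the UBKO and 52 over the control libraries. Ucp1 had 273 and 156, and Cox8b 11376 and 4055. Of 10 white adipocyte-associated genes, 1 was higher and 1 lower, with a median log2 difference of 0.43. With scaling by total counts 1 was higher and 2 lower, with a median of 0.04. Retn, which encodes resistin and is a gene that PRDM16 is known to repress, was higher. Its level was 2564 ± 474 CPM in UBKO and 908 ± 142 CPM in control fat (95% interval of the fold 2.15 to 3.71, edgeR adjusted p = 0.00177). Lep had a log2 difference of -0.75 (edgeR adjusted p = 0.116), and -1.15 with scaling by total counts (edgeR adjusted p = 0.00923). Tcf21, a white and progenitor factor, was lower (log2 difference -1.03, edgeR adjusted p = 0.0264). In the 9 fits without 1 library Retn was called in 9 and Tcf21 in 5. Retn was also the 1 gene called of 7 targets of C/EBPalpha, whose median log2 difference was 0.54. With scaling by total counts 2 of the 7 were higher (Retn and Scd1) and 1 lower (Lep), with a median of 0.20, and without Control replicates 1 and 2 the median was 0.33.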

How the data were processed

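Total RNA from whole epididymal fat was sequenced as paired-end libraries, per the labels' protocols. The authors deposited whole-number read counts and FPKM per gene and library, and a comparison of the groups by log2 ratio, with its p-value and q-value. Per the submitters' processing notes, mm10, Cuffdiff, HISAT2 and SAMtools 1.3.1 were used. The role of each and the strand setting are not stated there. EdgeR 4.0.16 tested the deposited counts (R 4.3.3; filterByExpr by group, TMM, glmQLFit and glmQLFTest, genotype as the only term, Benjamini-Hochberg adjustment over 16123 genes). SEs and 95% intervals come from the F statistic. Ratios of FPKM were tested with scipy 1.17.1. On simulated counts for the 16123 genes, 47% of 100 genes changed 2-fold and 79% of 100 changed 4-fold were recovered. The changed genes were drawn from those above a minimum level, and the other 15923 were left unchanged. In the real data 11.4% of genes were called, so recovery there may differ. Alternatives used DESeq2 1.42.0 and limma 3.58.1, other scalings, filters and left-out libraries. Named are the members, Ctnnb1 and, per list, up to 6 called genes. Paralogs, partners and other list genes named without a call were chosen after their values were seen. The members and lists were chosen with earlier results of these data known. No replicate pair was a duplicate (lowest chi-square per degree of freedom 17). Ddit3 had 2 IDs, of which the one at its RefSeq position was used. The list of type I interferon genes is not reported here.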

Additional observations from a re-analysis of the deposited data

Results flagged for a closer look

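Of 28 groups of library values examined, 2 held a library far from the others of its group, where chance gives about 1 in 20. Nrip1 stood at 95.5 CPM in UBKO replicate 1, against 71.0 to 74.0 CPM in the other UBKO libraries, and without that library its log2 difference was -0.08. Hoxc10 stood at 1.29 CPM in UBKO replicate 3, which rests on 18 counts, against 0.278 to 0.391 CPM in the other UBKO libraries.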

How the results depend on the processing

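The count of regulators higher in UBKO stayed at 0 under every alternative run. The count lower, 0 with TMM, was 3 of 9 with scaling by total counts, 2 of 6 with limma on log2(FPKM + 1) and on log2(FPKM + 0.1), and 1 of 10 with limma without a filter, and stayed at 0 in the other alternatives and in all 9 fits without 1 library. Over all genes, 1845 were called with TMM, 4718 with total counts, 863 with scaling to adipocyte markers, 1110 without a filter, 3041 with DESeq2, and 4025, 4138 and 3065 in those limma fits. Without Control replicates 1 and 2 it was 1022, and in fits without 1 library 756 to 2449. With a replicate block it was 747, and Nrip1 stood at -0.032. The numbers give no pairing in the labels, and same-numbered libraries correlated at -0.18, 0.54, 0.09 and 0.16.

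Log2 differences that changed sign, for Ebf2, Zfp423, Nrip1, Cebpa and Cebpb in this order, were -0.34, -0.27, -0.34, -0.11 and -0.35 with total counts, -0.26, -0.23, -0.31, -0.067 and -0.35 with adipocyte scaling, and -0.32, -0.25, -0.31, -0.091 and -0.32 in the authors' deposited table. Limma without a filter gave -0.10, -0.20, -0.25, -0.075 and -0.26. For Zfp423, Nrip1, Cebpa and Cebpb, limma gave -0.20, -0.25, -0.075 and -0.26 on log2(FPKM + 1), and -0.24, -0.31, -0.0755 and -0.26 on log2(FPKM + 0.1). Without Control replicates 1 and 2, Ebf2, Zfp423, Nrip1 and Cebpa stood at -0.36, -0.071, -0.048 and -0.028, and Ebf2 at -0.28 also without UBKO replicate 2. Without 1 library, Ebf2 ranged from -0.13 to 0.21, Nrip1 from -0.077 to 0.11 and Cebpb from -0.045 to 0.15. Irf4 ranged from -0.30 to -0.091 (without Control replicate 4), Zfp423 from 0.033 (without Control replicate 1) to 0.19 (without Control replicate 4), and Cebpa from 0.14 (without Control replicate 1) to 0.44 (without Control replicate 4). The difference in the Cebpa to Cebpb ratio was -0.25 without Control replicates 1 and 2, -0.093 also without UBKO replicate 2, and -0.022 to 0.50 without 1 library. That in Prdm16 to Tle3 was 0.050 on FPKM + 0.1, 0.11 without Control replicates 1 and 2, and -0.11 to 0.097 without 1 library. That in Ebf2 to Zfp423 was 0.012 on FPKM + 0.1, 0.05 with the replicate block, and -0.17 to 0.10 without 1 library. It was -0.29 without Control replicates 1 and 2 and -0.31 also without UBKO replicate 2, against -0.017 with all. That in Prdm16 to Nrip1, -0.39 with all, was -0.18 without UBKO replicate 1, -0.20 without Control replicates 1 and 2, and -0.53 without Control replicate 3. The cause was not tested. Depth limits Hoxc10 most, with 4 to 23 counts a library.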

Other observations

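No regulator passed the threshold, so the rule for genes of like pattern named none. As values for Cebpa alone, chosen afterwards, the 3 genes closest to its centred log2 CPM profile over the 9 libraries, among 11743 genes with a mean FPKM of at least 1, were Gpt, Nol3 and Aoc3, with root mean square differences of 0.08, 0.09 and 0.12 on the log2 scale. The profile of Cebpa itself spanned 1.18.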
